A study of Homo sapiens with 18 samples.

Results

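The genes of the 26S proteasome were followed in MCF10A cells, an immortalised breast epithelial line, and in hTERT RPE-1 cells, a telomerase-immortalised line from retinal pigment epithelium, after transfection of a microRNA mimic. Members were all genes of the deposited tables whose symbol has the form PSMA to PSMG followed by a number, without PSMB8, PSMB9 and pseudogenes. The pattern found 50 genes in both tables, which list 15358 genes in MCF10A and 15257 in hTERT RPE-1. Of these, 44 encode subunits, activators, an inhibitor or assembly chaperones of the proteasome, and all 44 passed the filter on low values in both lines. The other 6 symbols, such as PSMC3IP and the antisense RNA PSMB8-AS1, encode no part of the particle and were kept apart, so that counts over members below are over the 44.

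Polyadenylated RNA was sequenced 72 h after transfection with 30 nM of 1 of 3 RNAs: siNT, a non-targeting siRNA that served as the control, the hsa-miR-28-5p mimic or the hsa-miR-708-5p mimic, called miR-28 and miR-708 here. Each group had 3 biological replicates in each line, with the numbers 7, 8 and 9 for MCF10A and 1, 2 and 3 for hTERT RPE-1, 18 libraries in all. Both mimics belong to the MIR-28 family, and the study had picked them as repressors of ribosome biogenesis. A mimic is a synthetic RNA delivered at a set dose, so the design shows the response to added microRNA and not the action of the cell's own. All values below are normalised expression values, estimated read counts that the authors divided by a size factor of each library. Differences are log2 fold changes from limma on log2(value + 1), with Benjamini-Hochberg adjustment over all genes tested, and a gene was called at an adjusted p below 0.05.

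The libraries held 19400000 to 31710000 reads on genes in MCF10A and 23750000 to 40350000 in hTERT RPE-1, as estimated from the spacing of low values. KRT5, a marker of basal breast epithelium, and CDH1, a marker of epithelium in general, ranged from 42285 to 89713 and from 4530 to 11785 in MCF10A. Neither is listed in hTERT RPE-1. Of 7 markers of retinal pigment epithelium in the eye, hTERT RPE-1 lists 5 but neither RPE65 nor TYR. OTX2 ranged from 594 to 991, MITF from 1070 to 2031 and BEST1 from 153 to 249. RLBP1 ranged from 1.47 to 15.3 and PMEL from 1.16 to 544. MCF10A lists 4 of them, with RPE65 at up to 114 and BEST1 at 591 to 1209. Of the blood cell markers, CD3E and HBB are listed in neither line and PTPRC in hTERT RPE-1 only, at 3.14 to 11.4. The first miR-28 library of hTERT RPE-1 stood apart, with 15.1% of its values on rows of ribosomal RNA against 4.23% to 7.20% in the other 8 libraries of that line, and calls that ended or values that moved without it are given beside the results. Without it 7 instead of 5 members were higher and 12 instead of 13 lower with miR-28 in that line.

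The proteasome degrades proteins that carry ubiquitin chains. Its core is a barrel of stacked rings, with alpha subunits (PSMA) as the gate and beta subunits (PSMB) inside, where PSMB6, PSMB7 and PSMB5 hold the caspase-like, trypsin-like and chymotrypsin-like sites. The regulatory particle caps the barrel: a ring of ATPases (PSMC) unfolds substrates, and non-ATPase subunits (PSMD) bind, deubiquitinate and position them. Other caps, the activators PSME1 to PSME4, open the gate, PSMF1 (PI31) was first described as an inhibitor of the core, and chaperones (PSMG, with PSMD5, PSMD9 and PSMD10) build the particle and leave it. Under interferon PSMB10 takes the place of PSMB7, and PSME1 with PSME2 form the PA28 cap, a variant linked to antigen presentation. Cells are known to keep subunit transcripts in step, with NFE2L1 raising them together when proteasome activity falls short.

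MicroRNAs find transcripts mainly through their seed, bases 2 to 8 from the 5′ end. The mature hsa-miR-708-5p, encoded by MIR708 at chr11:79402077-79402099 on the minus strand (RefSeq, GRCh38.p14), is printed first, with the seed in capitals. The lines after it are 28-base windows of MANE Select transcripts (GENCODE v44, hg38) of the 4 members that fell with both mimics in both lines, with the match to the seed in capitals. Where an A follows the match, opposite the first base of the microRNA, it is also in capitals. By convention it counts in the length of the match. It does not pair with that base, which is an A in hsa-miR-708-5p.
hsa-miR-708-5p: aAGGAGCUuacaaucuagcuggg
PSMB2, stop codon: ttccttccccaaacaggGCTCCTAacat
PSMB2, 3′ UTR: ggaacttttttttgatggGCTCCTttat
PSMA5, 3′ UTR: ccttaaattttatttccAGCTCCTgttc
PSMF1, 3′ UTR, first match: gtgtctctttcaccatcAGCTCCTcccc
PSMF1, 3′ UTR, 8-base match: cccatatgtgatggggAGCTCCTAacag
PSMB6, coding exon 5: cattggaggctccgggAGCTCCTAcatc
The PSMB2 match of 7 bases, the last of them such an A, lies at chr1:35603268-35603274 in exon 6 and overlaps the stop codon. The PSMB2 3′ UTR of 3726 bases adds a pair of 6-base matches, the nearer starting at position 46. The PSMA5 match lies at chr1:109401938-109401944 in exon 9, position 69 of a 3′ UTR of 2971 bases, and another 7-base match lies in coding exon 7. PSMF1 has the longest 3′ UTR of the 44 genes, 7166 bases in exon 7, with 7-base matches from positions 233 and 254, an 8-base match at chr20:1171322-1171329 and 6-base matches at 3 other places, and another 7-base match lies in coding exon 2. The PSMB6 match of 8 bases is in the coding sequence, at chr17:4798072-4798079, and its 3′ UTR of 73 bases holds none. A match of letters is a description and does not show that the microRNA binds there.

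The shift over the 44 genes differed between the comparisons in size and direction. With miR-28 in MCF10A a downward shift was shared by most members. Without PSMA5, PSMB2, PSMF1, PSME1, PSME2 and PSMB10 the other 38 had a median log2 fold change of -0.23 (range -0.57 to 0.12). With miR-28 in MCF10A 13 of 44 members were called lower (29.5%), against 12% of all genes tested, and 0 higher, against 10.7% (limma; 0 also at an unadjusted p below 0.05), with a median log2 fold change over the members of -0.23. With miR-708 in the same line 5 were higher and 6 lower, against backgrounds of 15.5% and 17.3%, and the median was -0.040. In hTERT RPE-1 miR-28 left 5 members higher and 13 lower, against 23.3% and 23.5% of all genes, so the 13 (29.5%) stood near the background, and the median was -0.041. With miR-708 in hTERT RPE-1 the calls turned upward, with 19 higher (43.2%) and 9 lower (20.5%) against 30.9% and 31.2%, and a median of 0.19. The MCF10A counts rested on single libraries: the 13 lower with miR-28 became 7 without siNT replicate 8 or miR-28 replicate 7 or 8 and 6 without siNT replicate 9. With miR-708 the 6 lower became 10 without miR-708 replicate 7 and 3 without replicate 8 or 9, and the 5 higher became 3 without siNT replicate 9 or miR-708 replicate 8. In hTERT RPE-1 the 5 higher with miR-28 became 3 without siNT replicate 2. The median over all genes differed from 0 by at most 0.0061 in these 4 comparisons.

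**Figure D1:**
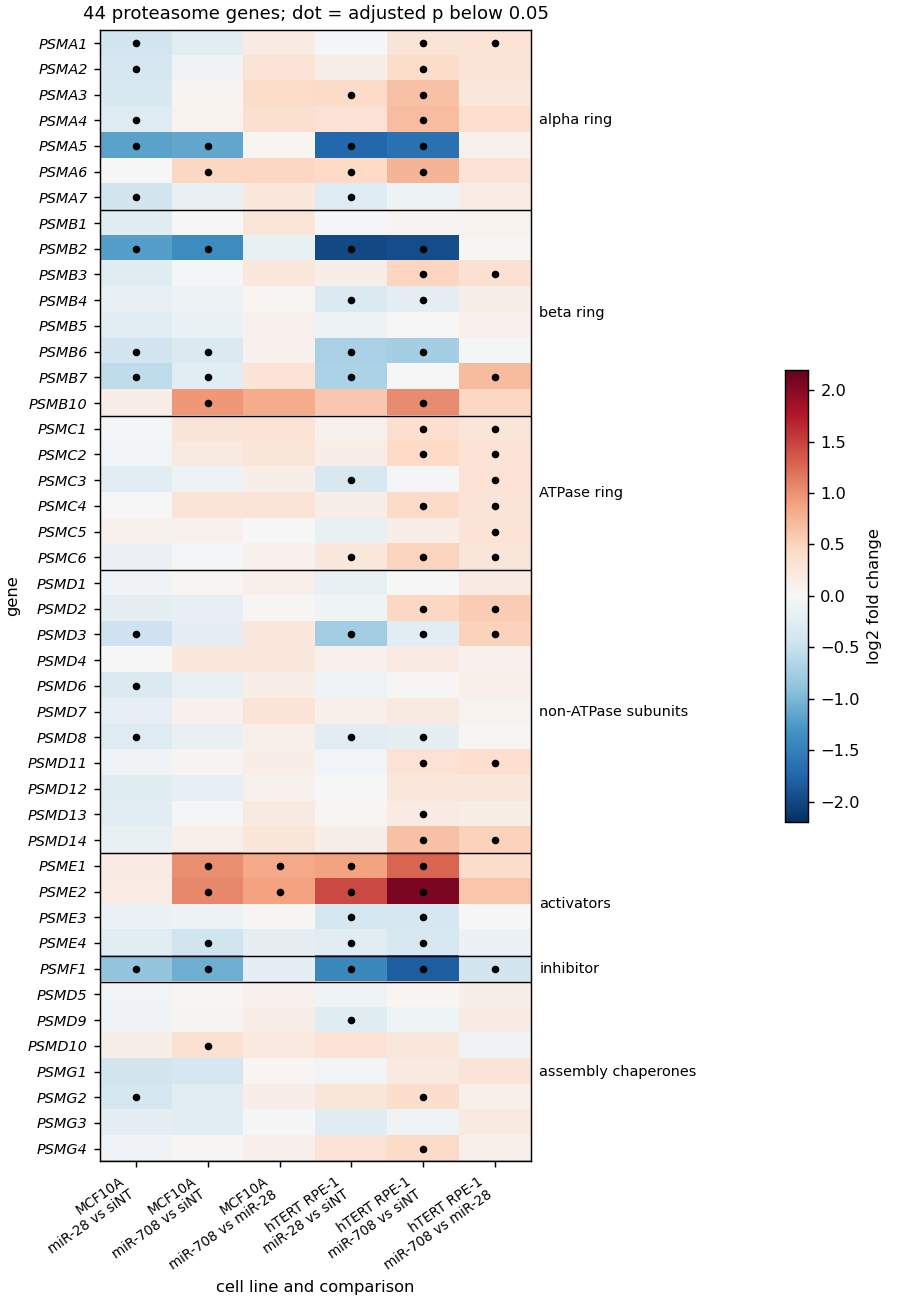
Colours give the log2 fold change of the 44 proteasome genes (rows, by role) in 6 comparisons (columns; MCF10A on the left, hTERT RPE-1 on the right), and a black dot marks an adjusted p below 0.05. PSMA5, PSMB2 and PSMF1 are blue with a dot in all 4 comparisons with siNT, PSME1 and PSME2 are red, and the 6 ATPase genes carry a dot in the last column.

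These directions are relative to the scaling of the authors, which places the median gene at no change. With values scaled to the library totals instead, the median of all genes moved to 0.12 and 0.14 with miR-28 and miR-708 in MCF10A and to 0.091 and 0.32 in hTERT RPE-1. The share of higher calls among all calls then moved from 47.1% to 66.1%, from 47.3% to 67.6%, from 49.9% to 59.4% and from 49.7% to 71.8%. The members moved with it: 6 instead of 13 were lower with miR-28 in MCF10A, and 32 instead of 19 were higher with miR-708 in hTERT RPE-1. Each change below is therefore relative to the median gene. As these are bulk samples, less of a transcript per cell and fewer cells that hold it cannot be told apart.

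PSMB2, PSMA5 and PSMF1 fell in every mimic group of both lines, to between 25.5% and 54.8% of the siNT mean. Of the other alpha and beta genes only PSMB6 was called lower in all 4 comparisons with siNT. With miR-28 in MCF10A 5 of 7 alpha genes, PSMA5 among them, were lower (71.4%, against 12% of all genes). PSMB2, a beta subunit without a catalytic site, read 3608, 4098 and 3611 in the siNT libraries of MCF10A, 1866, 1589.7 and 1429 with miR-28 and 1908, 1452 and 1085 with miR-708. In hTERT RPE-1 it read 3441, 3407 and 3498 with siNT, 817, 1006 and 815 with miR-28, and 844, 929 and 894 with miR-708. No library of either mimic came near a siNT library in either line. The log2 fold changes were -1.22 (SE 0.18, adjusted p = 0.00111) and -1.38 (SE 0.18, adjusted p = 0.000231) in MCF10A and -1.98 (SE 0.096, adjusted p = 3.94e-07) and -1.96 (SE 0.096, adjusted p = 1.61e-07) in hTERT RPE-1, where the mimic means stood at 25.5% and 25.8% of siNT.

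PSMA5, a subunit of the outer alpha ring, gave 2897, 3183 and 3061 with siNT in MCF10A, 1349, 1397 and 1290.2 with miR-28 and 1718, 1278 and 1196 with miR-708. The corresponding values in hTERT RPE-1 were 2302, 2266 and 2515 with siNT, 625, 919 and 636 with miR-28, and 729.7, 755 and 794 with miR-708. All mimic libraries lay below all siNT libraries, and the miR-28 and miR-708 libraries overlapped each other in both lines. The log2 fold changes were -1.18 (SE 0.13, adjusted p = 0.000283) and -1.14 (SE 0.13, adjusted p = 0.000112) in MCF10A, and -1.72 (SE 0.14, adjusted p = 6.95e-06) and -1.63 (SE 0.14, adjusted p = 3.97e-06) in hTERT RPE-1.

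PSMF1, whose product binds the core particle, read 2772, 2746 and 2665 with siNT in MCF10A, 1597, 1445 and 1442 with miR-28 and 1538, 1281 and 1099.7 with miR-708. In hTERT RPE-1 the series was 2125, 2071 and 2057 with siNT, 798, 791 and 750.2 with miR-28, and 614, 586 and 576 with miR-708. Here the mimics also separated from each other, since every miR-708 library of hTERT RPE-1 was below every miR-28 library. The log2 fold changes against siNT were -0.87 (SE 0.12, adjusted p = 0.000809) and -1.08 (SE 0.12, adjusted p = 0.000105) in MCF10A, and -1.42 (SE 0.077, adjusted p = 7.4e-07) and -1.81 (SE 0.077, adjusted p = 7.5e-08) in hTERT RPE-1. The calls of PSMB2, PSMA5 and PSMF1 against siNT held in each fit that left out 1 library and under each alternative setting.

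**Figure D2:**
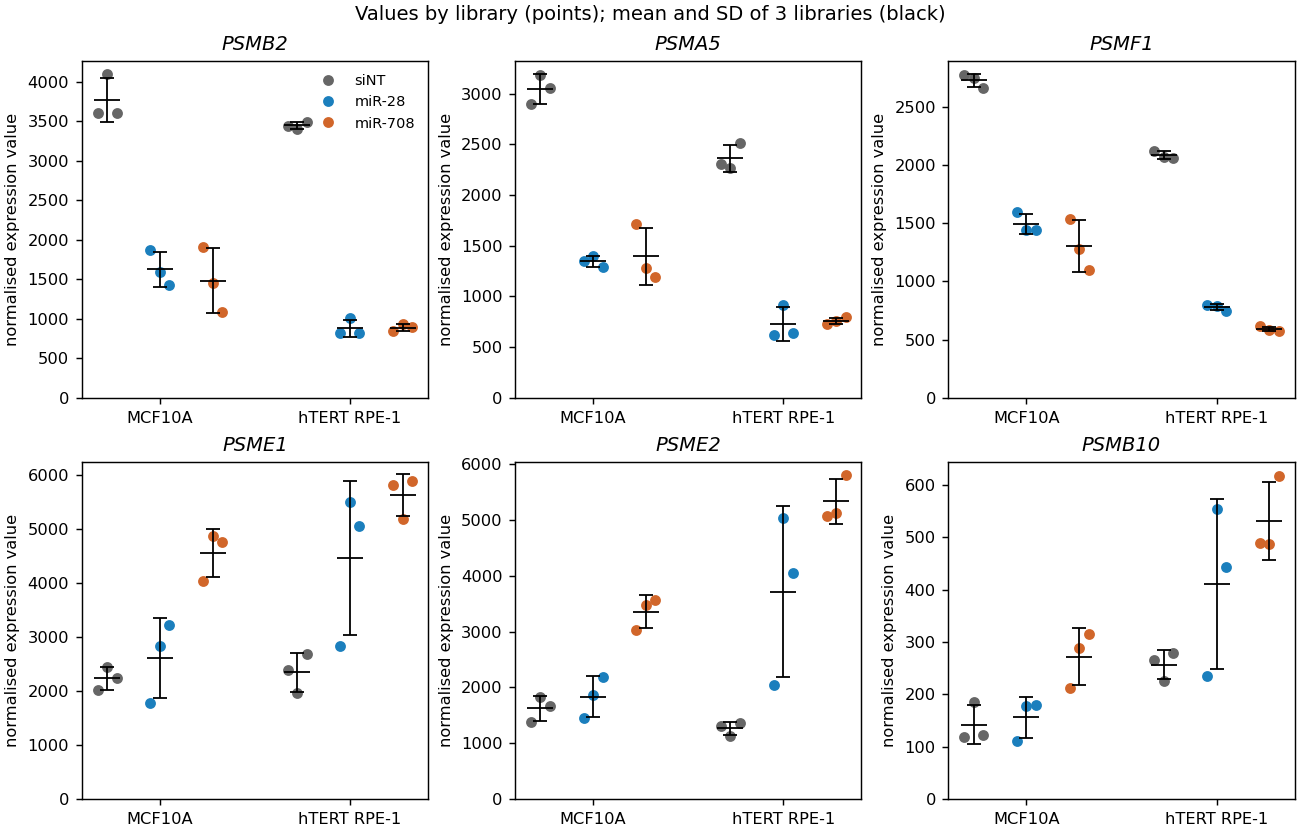
Points are the normalised expression values of single libraries (linear axis from 0), grey for siNT, blue for miR-28 and orange for miR-708, with the mean and SD of 3 libraries in black. PSMB2, PSMA5 and PSMF1 are lower in all mimic libraries of both lines, while PSME1, PSME2 and PSMB10 are higher with miR-708 and 1 miR-28 library of hTERT RPE-1 lies below the other 2.

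Among the catalytic subunits only PSMB6 fell in all 4 comparisons, and PSMB5 was called in none. PSMB6, the caspase-like subunit, read 1064, 1252 and 1243 with siNT, 870.1, 861 and 933 with miR-28, and 1036, 904 and 902 with miR-708 in MCF10A, and 1573, 1606 and 1485 with siNT, 928, 867 and 1051 with miR-28, and 1058, 821 and 910.5 with miR-708 in hTERT RPE-1. Mimic and siNT libraries did not overlap, with log2 fold changes of -0.41 (SE 0.11, adjusted p = 0.0171) and -0.32 (SE 0.11, adjusted p = 0.0351) in MCF10A and of -0.72 (SE 0.11, adjusted p = 0.000489) and -0.75 (SE 0.11, adjusted p = 0.00018) in hTERT RPE-1. In MCF10A these calls were narrow: the miR-28 call was lost without siNT replicate 8 or 9 or miR-28 replicate 8 (adjusted p up to 0.0676) and with library totals (0.057), and the miR-708 call without siNT replicate 8 or 9, miR-28 replicate 8 or miR-708 replicate 8 or 9 (up to 0.117) and with library totals (0.207).

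PSMB7, the trypsin-like subunit, separated the mimics in hTERT RPE-1. It gave 2319, 2284 and 2189 with siNT there, 1225, 1716 and 1299 with miR-28 and 2254, 2294 and 2261 with miR-708, so that miR-28 lowered it (-0.70, SE 0.11, adjusted p = 0.00074) and the miR-708 libraries lay among those of siNT (log2 fold change 0.0038, 95% interval -0.25 to 0.26). In MCF10A the values were 2739.7, 2899 and 2724 with siNT, 1822, 1843 and 1987 with miR-28, and 2368, 2321 and 2304 with miR-708. There PSMB7 fell with miR-28 (-0.57, SE 0.081, adjusted p = 0.00111) and less with miR-708 (-0.26, SE 0.081, adjusted p = 0.0308), a call that was lost without any 1 of the 3 siNT libraries, without miR-708 replicate 8 or 9 (adjusted p up to 0.098) and with library totals (0.286). PSMB5, the chymotrypsin-like subunit that proteasome inhibitor drugs bind, read 1966, 2124 and 2017 with siNT, 1487, 1780.5 and 1929 with miR-28, and 1905, 1798 and 1810.0 with miR-708 in MCF10A and 1939.9, 2056 and 1871 with siNT, 1842, 1773 and 1831 with miR-28, and 2038, 1851 and 1955 with miR-708 in hTERT RPE-1. Its log2 fold changes ran from -0.24 (95% interval -0.47 to -0.013) with miR-28 in MCF10A to -0.0055 (-0.17 to 0.16) with miR-708 in hTERT RPE-1. Of the other beta genes PSMB3 rose with miR-708 in hTERT RPE-1 (0.48), PSMB4 was lower there with both mimics (-0.33 and -0.19), and PSMB1 was called in no comparison.

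The PA28 genes PSME1 and PSME2 and the interferon-responsive beta subunit PSMB10 rose with miR-708 in both lines. PSME1 read 2009.9, 2443 and 2234 with siNT, 1779, 2828 and 3218 with miR-28, and 4036, 4854 and 4745 with miR-708 in MCF10A. In hTERT RPE-1 it read 2380.1, 1967 and 2681 with siNT, 2828, 5484 and 5049.9 with miR-28, and 5809.7, 5172 and 5890.1 with miR-708. Every miR-708 library exceeded every siNT library, with log2 fold changes of 1.03 (SE 0.18, adjusted p = 0.00176) in MCF10A and 1.27 (SE 0.21, adjusted p = 0.000449) in hTERT RPE-1.

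PSME2, the partner of PSME1 in the same cap, gave 1380.2, 1826 and 1674 with siNT, 1448, 1858 and 2193 with miR-28, and 3023, 3480.0 and 3572 with miR-708 in MCF10A. Its hTERT RPE-1 values were 1302, 1129 and 1363 with siNT, 2039.6, 5042 and 4054 with miR-28, and 5063, 5133 and 5803 with miR-708, the largest rise among the 44 genes in any of the 6 comparisons: miR-708 took it to 422% of the siNT mean, a log2 fold change of 2.08 (SE 0.26, adjusted p = 5.4e-05), against 1.05 (SE 0.15, adjusted p = 0.000535) in MCF10A. PSMB10 gave 119, 184 and 121 with siNT, 111, 178 and 179 with miR-28, and 212, 289 and 315 with miR-708 in MCF10A and 265, 225 and 279 with siNT, 234.5, 555 and 443 with miR-28, and 489, 487 and 618 with miR-708 in hTERT RPE-1. With miR-708 it rose by 0.95 (SE 0.25, adjusted p = 0.0141) in MCF10A and 1.05 (SE 0.26, adjusted p = 0.00522) in hTERT RPE-1 on the log2 scale. The MCF10A call was lost without siNT replicate 7 or 9 or miR-708 replicate 8 or 9 (adjusted p up to 0.0594).

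With miR-28 these 3 genes were called in hTERT RPE-1 only for PSME1 (0.88, SE 0.21, adjusted p = 0.00683) and PSME2 (1.46, SE 0.26, adjusted p = 0.0011), and PSMB10 missed the threshold (0.60, SE 0.26, adjusted p = 0.084). The first miR-28 library, the one rich in ribosomal RNA rows, was the lowest of its group for each, and its PSMB10 value lay within the siNT range. Without it the log2 fold changes were 1.18 (adjusted p = 3.57e-05), 1.84 (adjusted p = 1.13e-06) and 0.95 (adjusted p = 0.000739). In MCF10A the miR-28 libraries overlapped those of siNT for all 3 genes, with 95% intervals of -0.22 to 0.59 for PSME1, -0.17 to 0.50 for PSME2 and -0.41 to 0.69 for PSMB10.

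Promoters of these genes share a letter pattern, and the windows below show it in capitals (RefSeq promoters, GRCh38.p14, 250 bases before to 50 after each start). The pattern, GAAA followed after any 2 bases by GAAA, is the core of the interferon-stimulated response element and was searched on both strands.
PSMB10: gtaaaggcGAAAGCGAAAgcaggaag
PSME2: tggggagtGAAAGCGAAAgcccgggc
PSME1, pattern on the opposite strand: cctaccgcTTTCGCTTTCccttcgcg
The matches lie at chr16:67936862-67936871, chr14:24146629-24146638 and chr14:24136199-24136208. Of 35116 promoters 3.57% hold the pattern, and of 46 promoters of 38 member genes 6 do (13%). The others are those of PSMG4, with the same 10 letters as the 3 above, and of PSMA4 and PSMB4. PSMG4 and PSMA4 rose with miR-708 in hTERT RPE-1 (0.43 and 0.68) while PSMB4 was lower. In MCF10A PSMG4, PSMA4 and PSMB4 were not called with miR-708 (0.032, 0.069 and -0.11). The pattern TTCNNNGAA, also searched, is in promoters of 6 member genes (13% of promoters against 7.66% of all). PSME1, PSME2 and PSMB10 are not among them. The pattern TGANNNNGC, the core of the antioxidant response element, is in promoters of 24 member genes (58.7% of promoters against 41.8% of all).

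The other activators went the opposite way where they were called. PSME4 (PA200), a cap known from chromatin and testis, read 6729, 5779.8 and 5652 with siNT, 5568, 4769 and 4921 with miR-28, and 5143, 4266 and 3966 with miR-708 in MCF10A and 6229.8, 6151 and 6681 with siNT, 5194, 5686 and 5386 with miR-28, and 4662, 4811 and 5482 with miR-708 in hTERT RPE-1. It fell with miR-708 in both lines (-0.45, SE 0.12, adjusted p = 0.0142 and -0.35, SE 0.086, adjusted p = 0.00463) and at the edge of the threshold with miR-28 in hTERT RPE-1 (-0.23, SE 0.086, adjusted p = 0.0497). In MCF10A the miR-28 value of -0.25 passed only with the replicate number as a block (adjusted p = 0.0475 against 0.148), and the miR-708 call was lost without siNT replicate 7 or miR-708 replicate 8 or 9 (up to 0.0672). The hTERT RPE-1 call with miR-28 was lost in 7 of the 9 fits that left out 1 library (up to 0.122), and with library totals neither hTERT RPE-1 call stood (0.262 and 0.781). PSME3, the nuclear PA28 gamma, fell in hTERT RPE-1 with both mimics (-0.38, SE 0.096, adjusted p = 0.00776 and -0.38, SE 0.096, adjusted p = 0.00583), the second call not holding with library totals (0.641), and was not called in MCF10A.

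In the alpha ring, 5 of 7 genes were lower with miR-28 in MCF10A (PSMA1, PSMA2, PSMA4, PSMA5 and PSMA7; 71.4%, against 12% of all genes; median -0.38). With miR-708 in hTERT RPE-1 5 of 7 were higher (PSMA1, PSMA2, PSMA3, PSMA4 and PSMA6; 71.4%, against 30.9%; median 0.41). PSMA3 and PSMA6 were called lower in no comparison. PSMA6 read 3876, 4148 and 4113 with siNT, 3397, 4315 and 4401 with miR-28, and 5553, 5317 and 5731 with miR-708 in MCF10A and 2443, 2239 and 2272 with siNT, 2643, 3690.3 and 3215 with miR-28, and 4104, 3796 and 3761 with miR-708 in hTERT RPE-1. It rose with miR-708 in MCF10A (0.45, SE 0.11, adjusted p = 0.00799) and with both mimics in hTERT RPE-1 (0.45, SE 0.11, adjusted p = 0.00853 and 0.75, SE 0.11, adjusted p = 0.000218), where all mimic libraries exceeded all siNT libraries. PSMA3 gave 2716, 3136 and 3231 with siNT, 2427, 2446 and 2287 with miR-28, and 3772, 2857 and 2936 with miR-708 in MCF10A and 2260.2, 2019.8 and 2348 with siNT, 2517, 3454 and 2933 with miR-28, and 3677, 3187 and 3515 with miR-708 in hTERT RPE-1. Its rise in hTERT RPE-1 was 0.42 (SE 0.12, adjusted p = 0.0142) with miR-28, lost without siNT replicate 2 (0.0596), and 0.65 (SE 0.12, adjusted p = 0.000733) with miR-708. In MCF10A its miR-28 value of -0.34 missed the threshold (adjusted p = 0.0574) and passed it with the replicate block (0.0436). The MCF10A calls of PSMA2, PSMA4 and PSMA7 with miR-28 were each lost without 1 of 4 to 8 libraries, siNT replicates 8 and 9 and miR-28 replicates 7 and 8 in each case, with adjusted p up to 0.106, 0.138 and 0.101, and did not stand with library totals.

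In the regulatory particle, the ATPase genes PSMC1, PSMC2, PSMC4 and PSMC6 rose with miR-708 in hTERT RPE-1 (66.7% of 6, against 30.9% of all genes), by 0.38, 0.44, 0.42 and 0.50, and PSMC3 and PSMC5 were not called (-0.022 and 0.14). In MCF10A limma called no ATPase gene with either mimic (at an unadjusted p below 0.05, 1 lower with miR-28 and 3 higher with miR-708). The values ran from -0.26 to 0.10 with miR-28 and from -0.12 to 0.28 with miR-708, and PSMC4 with miR-708 passed only with the replicate block (0.0361 against 0.0587). With miR-28 in hTERT RPE-1 PSMC6 was higher (0.23, a call lost without siNT replicate 1 or 2 or miR-28 replicate 1 or 2, with adjusted p up to 0.112) and PSMC3 lower (-0.35).

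Of the 11 non-ATPase genes 4 rose with miR-708 in hTERT RPE-1 (PSMD2, PSMD11, PSMD13 and PSMD14; 36.4%, near the 30.9% of all genes) and 2 were lower (PSMD3 and PSMD8; 18.2%, against 31.2%), and in MCF10A miR-708 gave no limma call among them (at an unadjusted p below 0.05, 0 higher and 1 lower). PSMD14, the deubiquitinase of the lid, read 2719, 2477 and 2799.9 with siNT, 3004, 3074 and 2718 with miR-28, and 4532, 3725 and 4302 with miR-708 in hTERT RPE-1, and every miR-708 library, but not every miR-28 library, stood above siNT (0.65, SE 0.096, adjusted p = 0.000179). Its MCF10A values of 3838, 3901 and 3878 with siNT, 3226, 3624 and 3540.3 with miR-28, and 4959, 3653 and 4021 with miR-708 gave no call (-0.16 and 0.11). PSMD2, a scaffold that docks ubiquitin shuttles, read 11267, 10375 and 11114 with siNT, 10042, 10898 and 9683 with miR-28, and 14999, 13754 and 16176 with miR-708 there and rose with miR-708 (0.45, SE 0.093, adjusted p = 0.00154). In MCF10A PSMD2 read 6413, 6719 and 5345 with siNT, 4804, 5221 and 5919 with miR-28, and 5712, 4999 and 5482 with miR-708, with overlapping groups and no call. PSMD4, the ubiquitin receptor, was called nowhere: it gave 2984, 3571 and 2859 with siNT, 2493, 3148 and 3822 with miR-28, and 3433, 3586 and 4078 with miR-708 in MCF10A and 2310.0, 2212 and 2342 with siNT, 2481, 2237 and 2589 with miR-28, and 2712, 2531 and 2523 with miR-708 in hTERT RPE-1, with log2 fold changes from -0.0074 (95% interval -0.33 to 0.32) to 0.24 (-0.085 to 0.56).

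PSMD3, a lid subunit, fell with miR-28 in both lines (-0.45, SE 0.096, adjusted p = 0.0077 and -0.76, SE 0.084, adjusted p = 5.8e-05). With miR-708 it was lower in hTERT RPE-1 (-0.25, SE 0.084, adjusted p = 0.0236), a call lost without siNT replicate 1 or 2 or miR-708 replicate 1 or 2 (up to 0.0857) and turned to 0.069 with library totals. PSMD13 with miR-708 in hTERT RPE-1 (0.19, SE 0.076, adjusted p = 0.0499) kept its call in none of the 9 fits that left out 1 library, and PSMD8 was lower with miR-28 in both lines (-0.28 and -0.25) and with miR-708 in hTERT RPE-1 (-0.22). Of 7 assembly chaperones PSMG2 was lower with miR-28 in MCF10A (-0.38) and PSMD10 higher with miR-708 in MCF10A (0.33). In hTERT RPE-1 PSMD9 was lower with miR-28 (-0.27), and PSMG2 and PSMG4 were higher with miR-708 (0.38 and 0.43). In this order the shares were 14.3%, 14.3%, 14.3% and 28.6%, near or below the 12%, 15.5%, 23.5% and 30.9% of all genes. With library totals the miR-708 values of PSMD8 and PSMB4 in hTERT RPE-1 turned to 0.097 and 0.13, and that call of PSMB4 was kept in 1 of the 9 fits that left out 1 library. Several other calls rested on single libraries: the miR-28 calls of PSMD6, PSMD8 and PSMG2 in MCF10A were kept in 1, 2 and 5 of the 9 fits that left out 1 library, with adjusted p up to 0.127, 0.148 and 0.107, those of PSMD9 and PSMD8 in hTERT RPE-1 in 2 and 6, and that of PSMD10 with miR-708 in MCF10A in 5. PSMG1 with miR-28 in MCF10A (-0.41) passed only with the replicate block (0.0396 against 0.053).

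The mimics were then set against each other. In hTERT RPE-1 13 members were higher with miR-708 than with miR-28 (29.5%, against 9.88% of all genes tested) and 1 was lower (11.4% of all genes), with a median over the members of 0.21. Among the members called, PSMB7 differed most (0.70, SE 0.11, adjusted p = 0.00293), then PSMD2 (0.55, SE 0.093, adjusted p = 0.00321), PSMD14 (0.51, SE 0.096, adjusted p = 0.0052) and PSMD3 (0.51, SE 0.084, adjusted p = 0.00301), and these 4 calls held without any 1 library. PSMF1 was the gene that was lower with miR-708 (-0.40, SE 0.077, adjusted p = 0.00602), though not with library totals (-0.16, adjusted p = 0.163). All 6 ATPase genes were higher with miR-708, by 0.26 to 0.32, but each kept its call in only 2 to 5 of the 9 fits that left out 1 library, and PSMC1, for example, reached an adjusted p of 0.146. The number of higher members fell from 13 to 6 without the first miR-28 library, to 7 without miR-28 replicate 3, to 5 without miR-708 replicate 1 and to 6 without miR-708 replicate 3, and rose to 34 with library totals, where the share of higher calls among all genes called went from 46.5% to 84.8%. No difference was called for PSMB2 or PSMA5, with 95% intervals of -0.19 to 0.23 and -0.22 to 0.39.

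**Figure D3:**
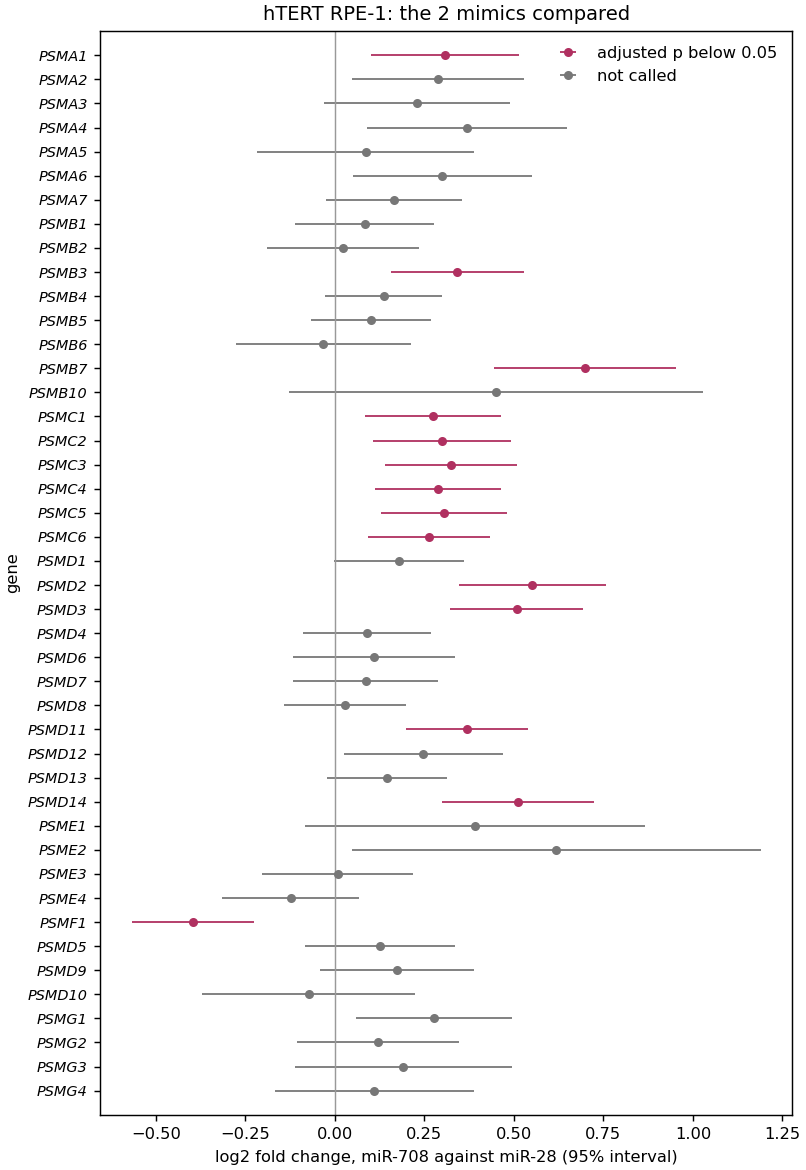
Points give the log2 fold change of miR-708 against miR-28 in hTERT RPE-1 for each of the 44 genes, with the unadjusted 95% interval as a line, in red where the adjusted p is below 0.05. PSMB7, PSMD2, PSMD14 and PSMD3 lie farthest right among the called genes, PSMF1 is the called gene left of 0, and PSME2 and PSMB10 have the widest intervals.

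In MCF10A 2 members were higher with miR-708 than with miR-28, against 1.28% of all genes, and 0 were lower, against 0.265%; at an unadjusted p below 0.05 limma gave 15 higher and 0 lower. They were PSME2 (0.89, SE 0.15, adjusted p = 0.0111) and PSME1 (0.84, SE 0.18, adjusted p = 0.0479). The PSME2 call was lost without miR-708 replicate 8 or 9 (up to 0.0731) and the PSME1 call without any siNT library, miR-28 replicate 8 or miR-708 replicate 8 or 9 (up to 0.196). Without the trend in limma neither call stood (0.89, adjusted p = 0.0729 for PSME2 and 0.84, adjusted p = 0.158 for PSME1). For PSMB2, PSMA5 and PSMF1 the mimics were not told apart in MCF10A, with intervals of -0.55 to 0.22, -0.24 to 0.31 and -0.46 to 0.05.

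The response was then compared between the lines as hTERT RPE-1 minus MCF10A, which share no library. With miR-28 12 of 44 members differed (27.3%, against 23.4% of the 13339 genes tested in both), and with miR-708 16 did (36.4%, against 39.8%), so neither count stood clear of the background. PSMB2, PSMA5 and PSMF1 fell further in hTERT RPE-1: by -0.76 (SE 0.20, adjusted p = 0.0112), -0.54 (SE 0.19, adjusted p = 0.039) and -0.55 (SE 0.14, adjusted p = 0.0085) with miR-28, and by -0.57 (SE 0.20, adjusted p = 0.0297), -0.49 (SE 0.19, adjusted p = 0.0394) and -0.74 (SE 0.14, adjusted p = 0.000362) with miR-708. PSMB6 fell further with miR-708 (-0.43, SE 0.15, adjusted p = 0.0308). PSME2 rose more in hTERT RPE-1, by 1.30 (SE 0.30, adjusted p = 0.00538) with miR-28 and 1.03 (SE 0.30, adjusted p = 0.0116) with miR-708. The other differences were all upward in hTERT RPE-1, among them PSMA3 with miR-28 (0.76, SE 0.17, adjusted p = 0.00256) and PSMD2, PSMA3 and PSMD14 with miR-708 (0.64, SE 0.15, adjusted p = 0.00172, 0.58, SE 0.17, adjusted p = 0.00812 and 0.54, SE 0.15, adjusted p = 0.00597). The miR-28 count fell from 12 to 7 without siNT replicate 8 of MCF10A or miR-28 replicate 2 of hTERT RPE-1, and to 6 without siNT replicate 9 of MCF10A or siNT replicate 2 of hTERT RPE-1.

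**Figure D4:**
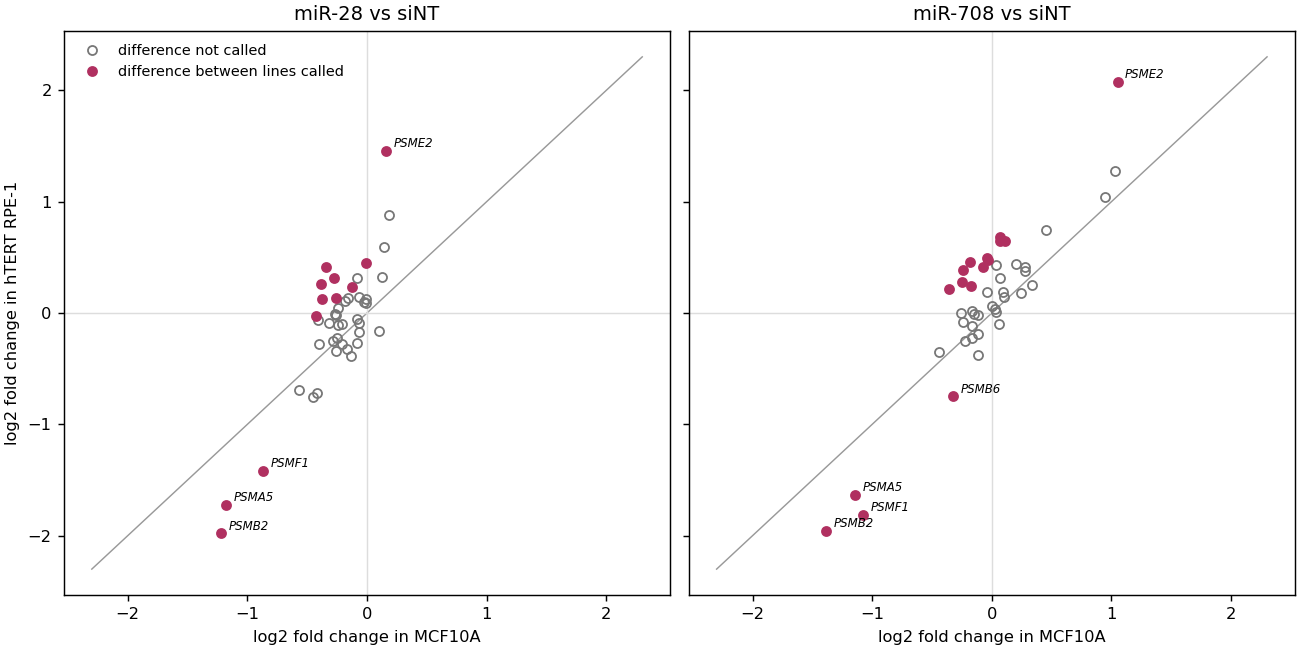
Each circle is 1 of the 44 genes, placed by its log2 fold change against siNT in MCF10A (x axis) and hTERT RPE-1 (y axis), with miR-28 on the left and miR-708 on the right; the diagonal marks equal responses, and filled circles are genes whose difference between the lines was called. PSMB2, PSMA5 and PSMF1 lie below the diagonal at the lower left, PSME2 above it at the upper right, and most of the other filled circles lie above the diagonal and near 0 on the x axis.

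The members were grouped by matches to the hsa-miR-708-5p seed in the 3′ UTR, which the choice of members did not use. Per the study hsa-miR-28-5p has the same seed, so the grouping holds for both mimics. An A that follows the match was counted in its length, as above. Of the 44 genes 7 hold a match of 7 or 8 bases (15.9%), against 18.7% of 12821 genes with a 3′ UTR tested in MCF10A and 18.8% of 12618 in hTERT RPE-1. Matches of 6 bases only are in 2 members (4.55%), against 17.0% and 17.2% of those genes. The median 3′ UTR of the members was 351.5 bases long, against 1353 and 1378.5 bases for all genes. The 7 genes were PSMA4, PSMA5, PSMC1, PSMC2, PSMD9, PSME3 and PSMF1, and their log2 fold changes with miR-708 ran from -1.14 to 0.28 in MCF10A and from -1.81 to 0.68 in hTERT RPE-1. Of these 7, PSMA4, PSMC1 and PSMC2 rose with miR-708 in hTERT RPE-1, and PSMB6, which fell, has no match in its 3′ UTR. Both genes with 6-base matches only, PSMB2 and PSMD3, had values below 0 in all 4 comparisons with siNT. PSMD3 was not called with miR-708 in MCF10A. With miR-708 PSMB2 stood at -1.38 and PSMD3 at -0.22 in MCF10A, and at -1.96 and -0.25 in hTERT RPE-1. The medians of these 2 genes were -0.80 and -1.10. In the 35 members with no match the medians with miR-708 were -0.037 in MCF10A and 0.21 in hTERT RPE-1, against 0.058 and -0.099 in the 7. With miR-28 they were -0.21 and -0.019 with no match, against -0.14 and -0.27 in the 7. The 2 genes with 6-base matches only had miR-28 medians of -0.83 and -1.37. Over all genes the medians with miR-708 were -0.14 with a match of 7 or 8 bases and 0.0044 with none in MCF10A, and for hTERT RPE-1 they were -0.27 and 0.092.

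**Figure D5:**
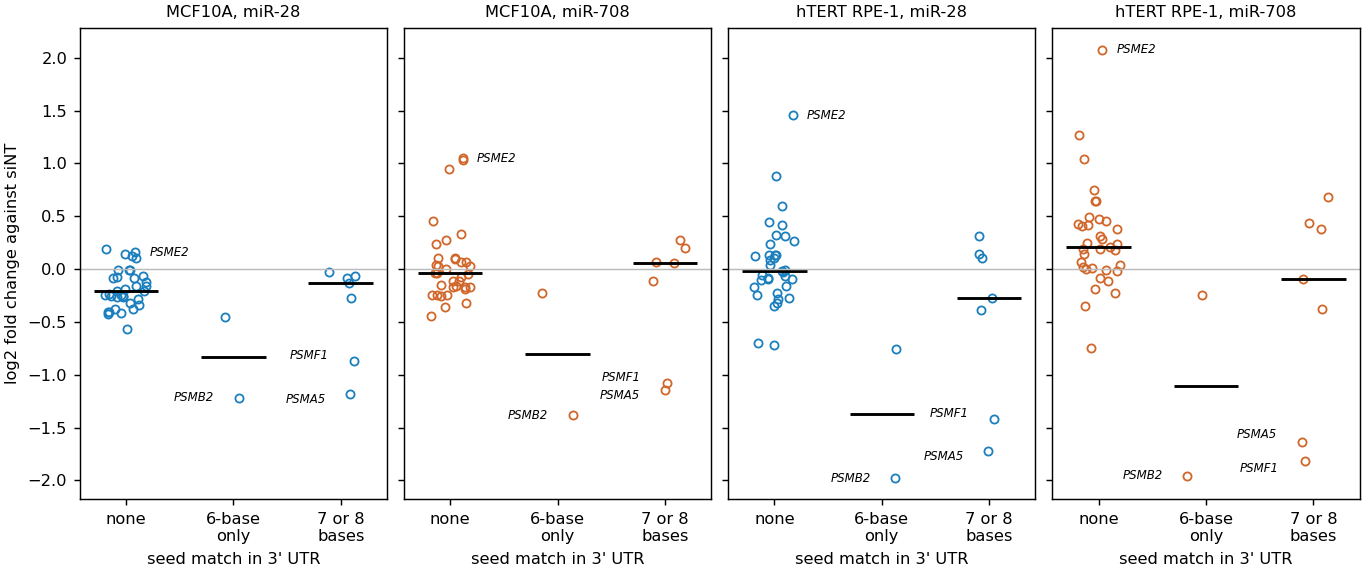
Circles give the log2 fold change against siNT of each of the 44 genes, by line and mimic, sorted by the longest match to the hsa-miR-708-5p seed in the 3′ UTR (none, 35 genes; 6 bases only, 2 genes; 7 or 8 bases, 7 genes), with bars at the medians. PSMA5 and PSMF1 stand at the bottom of the last class and PSMB2 at the bottom of the middle class, while the other genes with matches mix with those that have none.

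Genes that act with the proteasome were counted from 4 lists. The shares of all genes called, beside which they are read, were 10.7% higher and 12% lower with miR-28 and 15.5% and 17.3% with miR-708 in MCF10A. For hTERT RPE-1 they were 23.3% and 23.5% with miR-28 and 30.9% and 31.2% with miR-708. Of 11 associated proteins 4 were lower with each mimic in MCF10A, with 0 higher, and 3 were lower with each in hTERT RPE-1, with 1 (miR-28) and 2 (miR-708) higher, which in hTERT RPE-1 is near or below those shares. TXNL1 and UBE3C, a thioredoxin-like protein and a ubiquitin ligase of the particle, were lower in all 4 comparisons. The log2 fold changes with miR-708 were -0.63 and -0.72 for TXNL1 and -0.76 and -1.28 for UBE3C in MCF10A and hTERT RPE-1. POMP, the maturation factor of the core, was higher with miR-708 in hTERT RPE-1 only, at 0.30. Of 10 shuttle and delivery factors 2 were higher and 1 lower with miR-28 and 3 higher and 1 lower with miR-708 in MCF10A, and 2 higher and 2 lower with miR-28 and 2 higher and 3 lower with miR-708 in hTERT RPE-1. The hTERT RPE-1 counts of this list lay near or below the shares of all genes. Without the first miR-28 library 1 associated protein (UCHL5, adjusted p = 0.057) and 1 delivery factor (ZFAND5, 0.0945) lost their calls as higher with miR-28 there in limma. UBQLN4 (0.0318) passed as lower. ZFAND2A, a stress-induced zinc-finger protein, was higher in all 4 comparisons, with 1.12 and 1.03 for miR-708. Of the 6 genes of ubiquitin and its activating enzymes, RPS27A was lower in all but miR-28 in MCF10A, and UBB was higher with miR-708 in hTERT RPE-1.

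Among 7 regulators of proteasome transcription 2 were higher with miR-28 and 4 with miR-708 in MCF10A, and 3 with miR-28 and 4 with miR-708 in hTERT RPE-1, with 1 lower in each comparison except miR-708 in MCF10A, where 2 were. NFE2L2, the antioxidant factor, was lower in all 4 comparisons (log2 fold change with miR-708 -0.95 in MCF10A and -0.94 in hTERT RPE-1), and IRF1, which acts in interferon signalling, was higher in all 4. NLRC5, an activator of antigen-presentation genes, was higher in all but miR-28 in MCF10A, where its value was 0.52 (adjusted p = 0.116). In hTERT RPE-1 it read 719, 779 and 857 with siNT, 798, 3515 and 2491 with miR-28, and 2149.9, 3163 and 3129.6 with miR-708, with the first miR-28 library inside the siNT range. Its log2 fold change with miR-28 was 1.29 (adjusted p = 0.0277), or 1.92 (adjusted p = 1.53e-05) without that library. NFE2L1, the factor that raises proteasome genes together, was higher with miR-708 in MCF10A (0.35, adjusted p = 0.0269), and its values in hTERT RPE-1 were 0.018 and 0.12.

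Of the 6 other symbols that the pattern found, PSMC3IP, a meiotic recombination factor, read 158, 107 and 133 with siNT, 198.7, 342.6 and 253 with miR-28, and 604, 523 and 786 with miR-708 in hTERT RPE-1, and the groups did not overlap (0.98, SE 0.22, adjusted p = 0.00494 and 2.26, SE 0.22, adjusted p = 1.24e-05). In MCF10A it rose with miR-708 (0.85, SE 0.26, adjusted p = 0.0263). PSMB8-AS1 rose with miR-708 in both lines (2.17 and 2.34) and with miR-28 in hTERT RPE-1 (1.42). PSMA3-AS1 was higher with miR-28 in both lines (0.44 and 0.42), PSME3IP1, whose product binds PSME3, higher (0.27) and PSMG3-AS1 lower (-0.62) with miR-708 in hTERT RPE-1, and PSMD6-AS2 was called against siNT in neither line. Reads of an antisense RNA and of the gene it overlaps cannot be told apart here, since no use of strand in the counting is stated.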

How the data were processed

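Per the labels and the methods of the study, polyadenylated RNA was sequenced in 100 bp paired reads, reads were aligned to hg38 with HISAT2 2.1.0, and RefSeq Transcripts 93 were quantified by expectation-maximisation (E/M) in Partek Flow. The authors deposited a signal per gene and library, namely the estimated count after division by a size factor of that library, of the median-of-ratios kind judged from the methods and the values. At a tolerance of 0.1, 84.3% to 88% of low values fell on multiples of a common spacing in each library, so whole reads were not recovered, and that spacing gave the depth. The E/M step splits reads between near-identical copies, so members with pseudogenes carry that uncertainty. The authors also deposited their own comparisons (p-values, FDR, ratios and fold changes), which were not used; 0 columns of values per library were left out.

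The authors tested with DESeq2; since the deposited values are scaled, limma 3.58.1 in R 4.3.3 was used instead. A gene entered when 3 or more of the 9 libraries of a line reached a value of 10 (14726 in MCF10A, 14527 in hTERT RPE-1), log2(value + 1) was fitted with 3 group means per line and a trend, and p-values were adjusted by Benjamini-Hochberg. Tables were scaled separately, so lines were compared through their fold changes, with Welch–Satterthwaite degrees of freedom. The fit was tested on simulated data. Alternatives were a pseudocount of 10, no filter, library totals, no trend, the replicate number as a block and each library left out. Same-numbered libraries deviated together (r over 0.1 in all 3 pairs) for both mimics against siNT in MCF10A (0.111 to 0.302) and between the mimics in hTERT RPE-1 (0.134 to 0.278), but not in the other 3 comparisons. Standard errors and intervals come from the limma fits and measure the spread between replicate libraries, not the error of counting reads alone. The floor of 3 reads (values of 2.36 to 4.41) is in reads and not in molecules, since no use of molecular identifiers is stated.

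Seed matches were read from MANE Select transcripts of GENCODE v44 and promoters from RefSeq (GRCh38.p14, 38 of 44 genes) with Python 3.11.15. Members given in full were a fixed set of catalytic subunits, activators, receptors and the inhibitor, plus in each line the 3 members with the highest and lowest mean change among those called with both mimics, up to 3 with the largest called difference between mimics, and up to 3 between lines. Genes outside that rule were named after their values were seen. The members and lists were chosen with earlier results of these data known. Some genes of these lists are not reported here.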

Additional observations from a re-analysis of the deposited data

Results flagged for a closer look

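For 28 pairs of a member and a mimic the log2 fold change against siNT differed between the lines, tested as hTERT RPE-1 minus MCF10A (limma fits, Welch–Satterthwaite degrees of freedom, adjusted p below 0.05 over the 13339 genes tested in both lines). These are 12 members with miR-28 and 16 with miR-708, against backgrounds of 23.4% and 39.8% of all genes.

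With miR-28 the difference was positive for PSME2 (1.30), PSMA3 (0.76), PSMG2 (0.65), PSMA4 (0.59), PSMA2 (0.50), PSMA6 (0.46), PSMA1 (0.40), PSMB3 (0.39) and PSMC6 (0.36). It was negative for PSMB2 (-0.76), PSMF1 (-0.55) and PSMA5 (-0.54), the genes that fell in both lines. PSMG2, a chaperone of the alpha ring, was lower with miR-28 in MCF10A and was not called with it in hTERT RPE-1.

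With miR-708 the difference was positive for PSME2 (1.03), PSMD2 (0.64), PSMG2 (0.62), PSMA4 (0.61), PSMA3 (0.58), PSMG1 (0.57), PSMD14 (0.54), PSMC6 (0.53), PSMA1 (0.53), PSMB3 (0.51), PSMA2 (0.49) and PSMD12 (0.41). It was negative for PSMF1 (-0.74), PSMB2 (-0.57), PSMA5 (-0.49) and PSMB6 (-0.43).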

How the results depend on the processing

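Refits under the alternatives were compared with the main fit for the members given in full and for the called differences between the lines. Of these refits 1718 kept their direction and side of the threshold, 138 lost and 20 gained a call, and 28 changed sign. The differences between the lines were called from the start and could not gain a call. Scaling by library totals moved most counts: with miR-28 in MCF10A 6 members were lower (median -0.11), with miR-708 there 8 were higher (median 0.10), with miR-28 in hTERT RPE-1 9 were higher and 8 lower (median 0.044), with miR-708 there 32 were higher and 4 lower (median 0.51), and between the mimics in hTERT RPE-1 34 were higher and 0 lower (limma; median 0.44). It turned PSMA6 (0.099) and PSMD4 (0.10) with miR-28 in MCF10A, PSMB5 with miR-708 in hTERT RPE-1 (0.31), and PSMB6 (0.20) and PSME4 (0.11) between the mimics there. Without the trend 7 members were lower with miR-28 in MCF10A and 0 were higher between the mimics there (15 at an unadjusted p below 0.05 with the trend). A pseudocount of 10 and no filter moved no count by over 1.5 times.

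With the replicate number as a block 4 members instead of 2 were higher with miR-708 than with miR-28 in MCF10A, where the numbers did not pair the libraries, PSMA6 (adjusted p = 0.018) and PSMB10 (0.0283) being added by limma, and PSMD10 passed with miR-28 in hTERT RPE-1 (0.0478). Beside the 4 members given with their blocked values above, the block changed no other call.

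Leaving out 1 library gave, in MCF10A, 0 to 1 higher and 6 to 16 lower with miR-28, 3 to 7 higher and 3 to 10 lower with miR-708, and 0 to 2 higher between the mimics. In hTERT RPE-1 it gave 3 to 7 higher with miR-28, 5 to 17 higher between the mimics (median 0.17 to 0.28), and 6 to 13 members that differed between the lines with miR-28. Signs that turned belonged to values near 0. In MCF10A these were PSMA6 (-0.079 to 0.11) and PSMD4 (-0.16 to 0.15) with miR-28, PSMA3 (-0.060 to 0.14) and PSMD14 (-0.015 to 0.21) with miR-708, and PSMA5 (-0.12 to 0.14), PSMB2 (-0.37 to 0.040), PSMB5 (-0.012 to 0.18) and PSMD2 (-0.045 to 0.11) between the mimics. In hTERT RPE-1 they were PSMB5 (-0.039 to 0.031) and PSMB7 (-0.020 to 0.021) with miR-708, and PSMA5 (-0.010 to 0.27), PSMB2 (-0.029 to 0.12) and PSMB6 (-0.13 to 0.054) between the mimics. The cause was not tested. The lowest value of any of the 44 genes, 111 for PSMB10, lay far above the floor of 3 reads, and the spread between 3 libraries limited what could be told apart.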
